A study of Mus musculus with 9 samples.

Results

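The genes described here are the 37 carried by the mouse mitochondrial genome, 13 that encode proteins, 2 that encode ribosomal RNAs and 22 that encode tRNAs. They were chosen by their place on the mitochondrial chromosome, and all 37 were found by Ensembl identifier among the 55335 genes of the table. Their RNA was measured in the livers of 9 male offspring of the B6D2F2 strain fed a chow diet, in 3 groups of 3 called NC-chow, IVF-chow and FET-chow. Livers were taken at 20 weeks of age after a fast of 4 h. The NC-chow mice were conceived naturally and were carried by their own mothers. The IVF-chow and FET-chow mice both came from eggs and sperm of B6D2F1/J mice. The egg donors were superovulated with hormones, and the paper describes no such treatment for natural conception. Eggs were fertilized in vitro and cultured in HTF medium, and 2-cell embryos were transferred into pseudopregnant ICR females. The FET-chow embryos were also slow-frozen and thawed before transfer. Superovulation, fertilization in vitro, culture, transfer and the ICR foster dam therefore go together in both groups, and their parts cannot be told apart. The sex and the diet are those stated in the paper, and nothing names the litters, so the p-values measure the spread between these mice only.

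The mitochondrial genome is a small circle that is copied from both strands into long RNAs spanning many genes. The tRNA genes lie between most of the other genes, and their excision from the long RNAs sets the ribosomal and messenger RNAs free. All 13 proteins are subunits of the respiratory chain and ATP synthase, where they work beside many subunits encoded in the nucleus. The liver holds many mitochondria in each hepatocyte, and their RNA is a large part of total liver RNA. Of the 37 genes, 28 are read from the RNA transcribed off the heavy strand. The other 9, mt-Nd6 and 8 tRNA genes, are read from the light-strand RNA. In the GENCODE vM21 annotation of the GRCm38 build, 9 pairs of neighbouring genes overlap. The longest overlap is the 43 bases shared by mt-Atp8 and mt-Atp6, subunits of ATP synthase, on the mitochondrial chromosome (M) between 7927 and 7969. It is shown in capitals at the end of the mt-Atp8 gene, which runs from 7766 to 7969, because fragments from it belong to both genes and the values of mt-Atp6 are a main result below.

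mt-Atp8: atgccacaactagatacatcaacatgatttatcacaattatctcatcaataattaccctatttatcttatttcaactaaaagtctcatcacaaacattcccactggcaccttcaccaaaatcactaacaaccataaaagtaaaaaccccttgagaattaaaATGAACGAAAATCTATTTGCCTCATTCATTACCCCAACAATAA

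The next longest overlap on 1 strand is the 7 bases at which mt-Nd4l ends and mt-Nd4 begins, both of them subunits of complex I. It is shown in capitals within the 30 bases from 10155 to 10184 of the heavy-strand RNA, since mt-Nd4l was among the most variable coding genes.

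mt-Nd4l and mt-Nd4: caacctactacaATGCTAAaaattattctt

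The values are FPKM, the fragments of a gene divided by its length and by the depth of its library. The number of mapped fragments, estimated from the steps between low values, was 2020000 to 2940000 in the FET-chow mice, 3900000 to 8260000 in the IVF-chow mice and 6590000 to 13360000 in the NC-chow mice. All FET-chow estimates were below all NC-chow estimates. An estimate can be too high by a factor of about 2.04, as in 1 of 3 simulated libraries. This is more than the gap between the FET-chow and the smaller IVF-chow libraries, so the order of these is not settled. The libraries also differed in 3 nuclear entries of ribosomal RNA type (AY036118, Gm23935 and CT010467.1), which together took 3.49% of all FPKM in NC-chow mouse 5, 5.03% in NC-chow mouse 6 and 26.5% in NC-chow mouse 1. IVF-chow mouse 2 had 61.9%, the other IVF-chow mice had 19.3% and 18.1%, and the FET-chow mice had 41.8%, 29% and 31%. All FET-chow mice were above all NC-chow mice in this share. In the numbers at the end of the sample descriptions the other 7 mice run from 67 to 76, while NC-chow mice 5 and 6 carry higher ones. Of 10 hepatocyte markers, 9 matched and all 9 were above 0 in every mouse, with summed FPKM of 20538 to 34946 in the NC-chow, 5804 to 56374 in the IVF-chow and 8066 to 28060 in the FET-chow mice. Among the marker lists of other cell types, the erythroid list was the highest, with at most 850 FPKM. The list of skeletal or heart muscle had 61.3 FPKM in NC-chow mouse 1, and 0.483 and 0.243 in NC-chow mice 5 and 6. It had at most 9.29 in the IVF-chow and 4.45 in the FET-chow mice. Its part in the mitochondrial values of NC-chow mouse 1 was not tested.

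The mitochondrial genes were a large part of every library. They made up 40.2%, 55.3% and 51.9% of the summed FPKM in NC-chow mice 1, 5 and 6. IVF-chow mice 2, 3 and 4 had 27.6%, 41.5% and 28.9% there. In FET-chow mice 2, 3 and 4 they made up 28.6%, 34.2% and 41.4%. NC-chow mice 5 and 6 were above all other mice, while NC-chow mouse 1 lay among the mice of the other groups, so that the groups overlapped. The means were 49.1% ± 7.94 (SD, n = 3) for NC-chow, 32.7% ± 7.68 for IVF-chow and 34.8% ± 6.41 for FET-chow. A two-sided exact permutation test gave p = 0.2 for either group against NC-chow and p = 0.8 for FET-chow against IVF-chow, where the smallest p that 3 mice against 3 can give is 0.1. With the entries of ribosomal RNA type left out of the total, the means were 55.5% ± 1.5, 53.1% ± 18.6 and 52.5% ± 6.59. In bulk tissue, fewer cells of a type and less RNA per cell cannot be told apart, and neither can fewer mitochondrial genomes and less RNA from each.

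Within the mitochondrial total, the 3 classes of RNA took very different shares in different mice. The 13 coding genes held 95.1% and 95.7% of it in NC-chow mice 5 and 6, 67.7% to 88.6% in 6 mice and 24.5% in IVF-chow mouse 2. The ribosomal RNAs held 2.07% and 1.96% in NC-chow mice 5 and 6, 21.1% in NC-chow mouse 1, 74.1% in IVF-chow mouse 2, 7.94% and 8.94% in the other IVF-chow mice, and 23.4%, 12% and 11.7% in the FET-chow mice. NC-chow mice 5 and 6 were the lowest and IVF-chow mouse 2 the highest both in this share and in that of the nuclear entries of ribosomal RNA type. Whether the preparation of the libraries had a part in this was not tested. The tRNA genes held 1.44% to 8.91%.

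**Figure D1:**
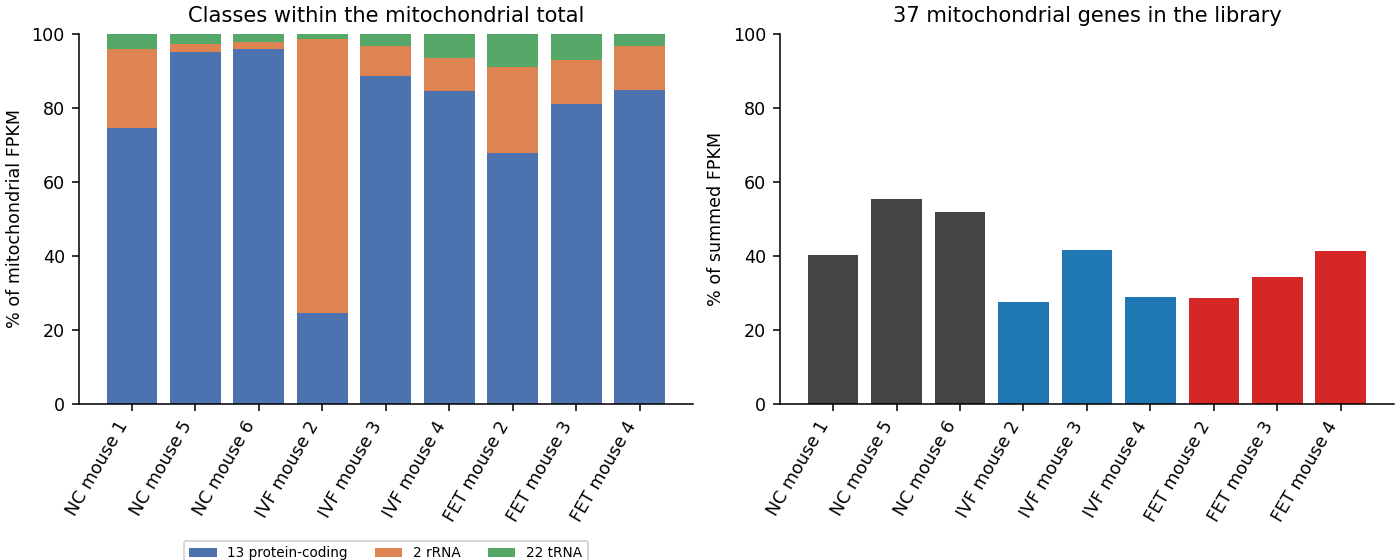
Left, percent of the mitochondrial FPKM in the 13 protein-coding, 2 rRNA and 22 tRNA genes of each mouse. Right, percent of the summed FPKM of each library in all 37 genes, with NC in grey, IVF in blue and FET in red; rRNA took 74.1% of the mitochondrial total in IVF mouse 2 and 1.96% in NC mouse 6.

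Of the ribosomal RNAs, mt-Rnr2 is the RNA of the large and mt-Rnr1 that of the small subunit of the mitochondrial ribosome. mt-Rnr2 (M, from 1094 to 2675) had FPKM of 49797, 5403 and 5035 in NC-chow mice 1, 5 and 6. It had 95070, 19004 and 13790 in IVF-chow mice 2, 3 and 4. FET-chow mice 2, 3 and 4 had 48832, 24544 and 33035. All 3 FET-chow mice were thus between NC-chow mouse 1 and the other NC-chow mice, and no group was clear of another. The log2 fold change on the log2(FPKM + 1) scale was 1.62 ± 0.71 (SE) in FET-chow against NC-chow, and limma gave an adjusted p-value of 0.351. It was 2.71 without NC-chow mouse 1 and 1.05 without NC-chow mouse 6, and against NC-chow mouse 1 alone it turned to -0.55. mt-Rnr1 (M, from 70 to 1024) ranged from 3753 in NC-chow mouse 6 to 88418 in IVF-chow mouse 2. The ratio of mt-Rnr2 to mt-Rnr1, which does not depend on the total, was 1.74 to 2.93 in the FET-chow mice and 1.12 to 1.72 in the NC-chow mice without overlap, but the lowest FET-chow and the highest NC-chow mouse were close, and the IVF-chow mice ran from 1.08 to 2.11.

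Among the coding genes, compared per length, those of cytochrome c oxidase (complex IV) and mt-Cytb led by mean rank in FPKM as deposited. In NC-chow mice 5 and 6, mt-Atp6 ranked 2 and 3. With the chromosome 1 copies described below added, mt-Atp6 was above mt-Cytb in every mouse, as in NC-chow mouse 1 at 54331 against 28099. As deposited, mt-Co1, the catalytic subunit of cytochrome c oxidase, was the highest coding gene in 8 of 9 mice, with 59630, 112513 and 103852 FPKM in the NC-chow mice, 13419, 74156 and 31098 in the IVF-chow mice and 39839, 50201 and 85212 in the FET-chow mice. In IVF-chow mouse 4, mt-Co3 was higher at 33691. With the copies added, mt-Co3 was above mt-Co1 in NC-chow mouse 1 (86485 against 75636), IVF-chow mice 3 and 4 and FET-chow mice 2 and 3. mt-Co1 stayed above mt-Co3 in the remaining mice. At the lower end, as deposited, mt-Nd4l or mt-Nd5, subunits of complex I, came last in 7 mice and mt-Nd3, another subunit of complex I, in NC-chow mice 5 and 6. With its copy added, mt-Nd3 (16390 and 14364) was above mt-Nd5 (13053 and 11874) in NC-chow mice 5 and 6. IVF-chow mouse 2 had the lowest FPKM of all mice for all 13 coding genes. Of these genes, mt-Nd6 (2383 to 13404 FPKM) is the only one read from the light-strand RNA, and it overlaps the end of mt-Nd5 by 14 bases on the opposite strand. The strandedness of the libraries is not given in the sources used here, and without it fragments from the shared bases cannot be told apart.

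**Figure D2:**
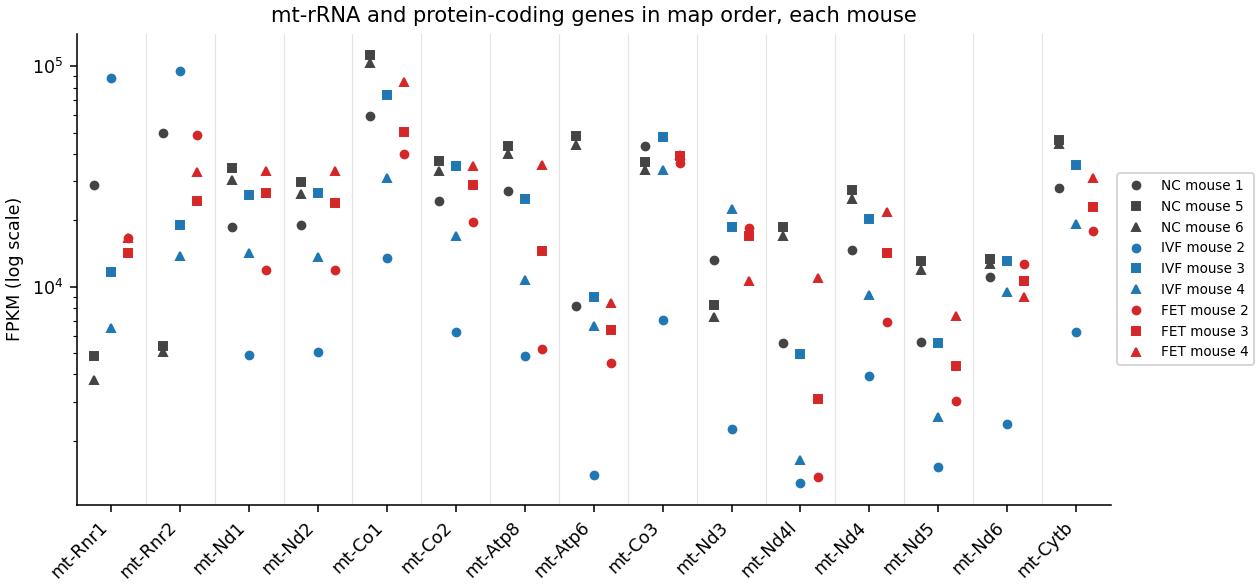
FPKM on a log scale of the mt-rRNA and protein-coding genes in the order of the map, one point per mouse. mt-Atp6 shows NC mice 5 and 6 at 48202 and 44046 and the other 7 mice at 1396 to 8983.

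No coding gene passed the test in a comparison between the groups, and some of the proportions among them did not overlap. Complex I genes held 31.4%, 30.9% and 30.3% of the coding FPKM in the NC-chow mice, 33.7% to 38.2% in the IVF-chow mice and 34.9% to 38.2% in the FET-chow mice. The NC-chow mice were below all others in this share. Once the copies described below were added to the members, both groups overlapped with NC-chow. With mt-Atp6 replaced by its copy, the FET-chow mice (31.5% to 34.4%) were still above the NC-chow mice (27.7% to 30.7%), and the IVF-chow mice (30% to 32.8%) overlapped with them. The share of mt-Cytb, the mitochondrial subunit of complex III, was lowest in FET-chow in each of these versions. As deposited, it was 10.1%, 9.83% and 10.3% in the NC-chow mice, 10.3%, 10.4% and 10.1% in the IVF-chow mice and 9.43%, 8.75% and 8.57% in the FET-chow mice. All FET-chow mice were below all others, with means of 8.92% ± 0.454 (SD, n = 3) against 10.1% ± 0.23 and 10.2% ± 0.156. The two-sided exact permutation p was 0.1 against either group, the smallest it can be, and the gene was singled out of 13 after its values were seen. Of the 13 shares, 2 were lower without overlap in FET-chow than in NC-chow (mt-Cytb and mt-Atp6), beside 7.83% of all genes tested when divided by the same total, and mt-Co2, another subunit of complex IV, was higher, beside 2.59%. The share of mt-Co2 was 8.79%, 7.94% and 7.81% in the NC-chow mice, 10.3%, 10.3% and 8.89% in the IVF-chow mice and 10.3%, 11% and 9.79% in the FET-chow mice. In IVF-chow against NC-chow, 3 shares were higher (mt-Nd1, mt-Nd2 and mt-Co2), beside 20.0% of all genes, and mt-Atp8 was lower, beside 0.651%. In FET-chow against IVF-chow, mt-Cytb was lower, beside 10.3% of all genes, and 0 were higher, beside 0.296%. With the copies added, this share was 5.69% to 5.86% in FET-chow, 6.53% to 7.5% in NC-chow and 6.13% to 7% in IVF-chow mice.

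A wide gap between mice was in mt-Atp6 (M, from 7927 to 8607), a subunit of the proton channel of ATP synthase. Its FPKM was 8200, 48202 and 44046 in NC-chow mice 1, 5 and 6, 1396, 8983 and 6610 in IVF-chow mice 2, 3 and 4. FET-chow mice 2, 3 and 4 had 4489, 6336 and 8459. Only NC-chow mice 5 and 6 were high, and NC-chow mouse 1 lay among the mice of the other groups. The log2 fold change was -2.06 ± 0.77 (SE) in FET-chow and -2.57 ± 0.77 in IVF-chow, both against NC-chow, with adjusted p-values of 0.27 and 0.411 by limma. In the same order, it was -2.89 and -3.40 without NC-chow mouse 1, and -0.40 and -0.91 against NC-chow mouse 1 alone. A pseudogene on chromosome 1, Gm10925, is identical to this gene over all of its 678 bases and did not show the gap. Its FPKM was 46336, 51183 and 46814 in the NC-chow mice, 8199, 51787 and 37929 in the IVF-chow mice and 24930, 35242 and 48035 in the FET-chow mice. The ratio of Gm10925 to mt-Atp6 was 1.06 in NC-chow mice 5 and 6, and 5.55 to 5.87 in the other 7 mice. Fragments from identical sequences cannot be told apart, and how they were divided between these genes was not tested. For Gm10925 the log2 fold change was -0.47 ± 0.58 in FET-chow against NC-chow (adjusted p = 0.792 by limma). It was -0.93 ± 0.58 in IVF-chow against NC-chow and did not pass there either. With this copy added to mt-Atp6, the log2 fold change of mt-Atp6 was -0.95 in FET-chow and -1.42 in IVF-chow, both against NC-chow.

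mt-Atp8, the gene overlapping mt-Atp6, had 27277, 43376 and 39812 FPKM in the NC-chow mice, 4864, 25012 and 10746 in the IVF-chow mice and 5225, 14450 and 35807 in the FET-chow mice. Every IVF-chow mouse was below every NC-chow mouse, and FET-chow mouse 4 was within the NC-chow range. With mt-Atp6 and mt-Atp8 together, complex V held 12.7%, 19.5% and 19.5% of the coding FPKM in the NC-chow mice and 5.12% to 12.2% in the FET-chow mice. In the IVF-chow mice it held 9.05% to 10.3%, and both groups were below all NC-chow mice. With the copies on chromosome 1 added, both groups were still below them, at 11.2% to 17.4% in FET-chow and 16.2% to 17.5% in IVF-chow against 19% to 22.1% in NC-chow mice. With Gm10925 in place of mt-Atp6, the shares were 14.3% to 20.9%, 19.4% to 21.8% and 20.0% to 23.2% in the same order, and the groups overlapped.

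Gm10925 is 1 of 16 annotated nuclear genes that match at least 80% of their length to the mitochondrial genome with at least 90% identity. On chromosome 1, 7 of them, listed in GENCODE vM21 as unprocessed pseudogenes, form a block from 24611535 to 24616197 (GRCm38, minus strand). In 5 of these 7 no base differed from the mitochondrial genome. Each of the other copies had 1 difference in its aligned bases, T9461C between mt-Nd3 and Gm28438 and A6393T between mt-Co1 and Gm29216, where the position is counted on the mitochondrial chromosome and the mitochondrial base comes first. Of the 492 bases of Gm29216, 483 were aligned. Together the block held 3.93% to 24.2% of the summed FPKM. The FPKM of 4 copies was close to that of their gene, with Gm28437 at 0.986 to 0.999 of mt-Co3, Gm28661 at 0.988 to 1 of mt-Co2, Gm28438 at 0.955 to 0.984 of mt-Nd3 and Gm10222 at 0.967 to 0.999 of mt-Nd4l. Besides Gm10925, 2 others were not close, Gm29216 at 0.4 to 1.4 of mt-Co1 and Gm28439 at 0.227 to 0.563 of mt-Nd4, and these cover only a part of their gene. The 3 copies on chromosome 2 (Gm13340, Gm13341 and Gm13339), with identities of 95.9% to 97.6%, had FPKM of 14.9 to 701, and the other 6 had at most 35.6. Reads from the mitochondrial genes and from the copies on chromosome 1 cannot be told apart where the sequences are the same.

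**Figure D3:**
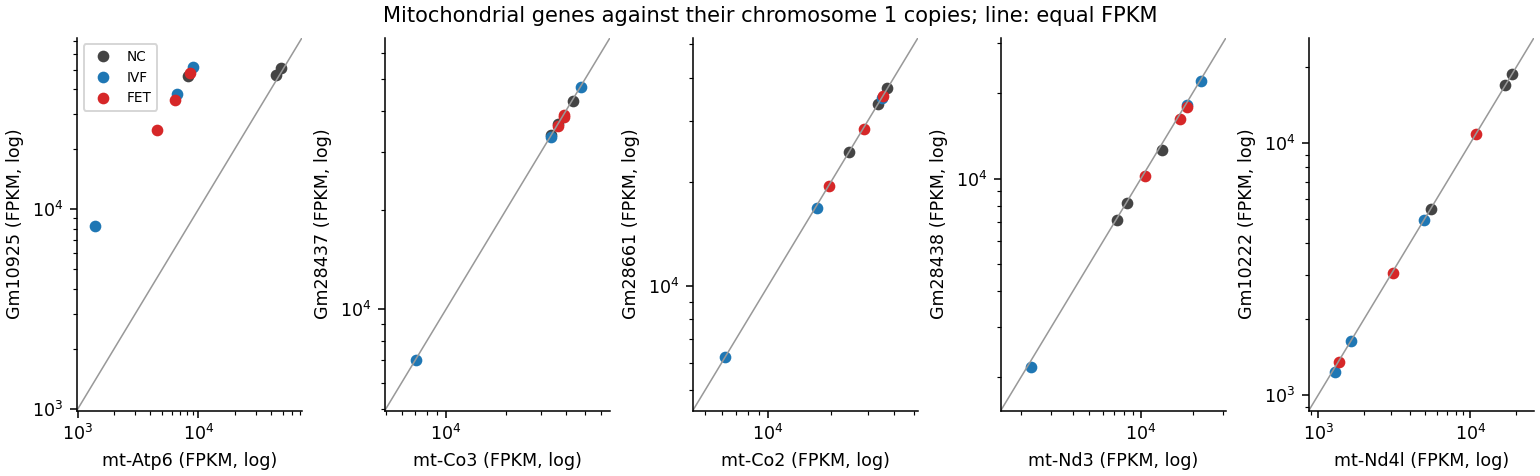
FPKM of 5 mitochondrial genes (x, log scale) and of their chromosome 1 copies (y, log scale), one point per mouse, with a line at equal FPKM. All points lie on or near the line except for mt-Atp6 in 7 mice, where Gm10925 was 5.55 to 5.87 times as high.

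The neighbouring complex I genes mt-Nd4l and mt-Nd3 moved apart between mice. mt-Nd4l (M, from 9877 to 10173) had 5522, 18724 and 16927 FPKM in the NC-chow mice, 1280, 4972 and 1642 in the IVF-chow mice and 1373, 3082 and 10938 in the FET-chow mice. mt-Nd3 (M, from 9459 to 9806) had 13250, 8297 and 7290, then 2266, 18640 and 22464, and then 18530, 16901 and 10604 in the same order. NC-chow mice 5 and 6 were thus high in the first and low in the second, and IVF-chow mouse 4 and FET-chow mouse 2 were the reverse. The ratio of mt-Nd4l to mt-Nd3 ran from 0.0731 in IVF-chow mouse 4 to 2.32 in NC-chow mouse 6, a range of 31.8-fold. It was 0.417 in NC-chow mouse 1, and the groups overlapped. The ratio of the copies Gm10222 and Gm28438 had the same range at 31.9-fold, and they share fragments with these genes. The log2 fold change of mt-Nd4l was -1.75 ± 0.85 (SE) in FET-chow and -2.46 ± 0.85 in IVF-chow, both against NC-chow, and neither passed by limma (adjusted p = 0.4 and 0.522). The value in FET-chow was -1.05 without FET-chow mouse 2 and -2.55 without FET-chow mouse 4.

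The tRNA genes are 59 to 75 bases long, and 4 of them had the highest mean ranks over the mice. These were mt-Te, mt-Tp, mt-Tn and mt-Tc, which carry glutamate, proline, asparagine and cysteine, all of them read from the light-strand RNA. They are shown as the tRNA reads, on the minus strand of GRCm38, with the anticodon in capitals. mt-Te runs from 14071 to 14139, mt-Tp from 15356 to 15422, mt-Tn from 5089 to 5159 and mt-Tc from 5192 to 5257 on the mitochondrial chromosome. mt-Ti, the isoleucine tRNA and the leading heavy-strand tRNA gene by mean rank, runs from 3706 to 3774 and is shown for comparison.

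mt-Te: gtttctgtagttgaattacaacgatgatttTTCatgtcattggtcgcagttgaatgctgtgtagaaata
mt-Tp: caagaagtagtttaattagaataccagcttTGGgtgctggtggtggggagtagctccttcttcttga
mt-Tn: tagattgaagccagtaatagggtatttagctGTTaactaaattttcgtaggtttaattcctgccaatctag
mt-Tc: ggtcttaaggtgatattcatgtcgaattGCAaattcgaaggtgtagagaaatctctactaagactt
mt-Ti: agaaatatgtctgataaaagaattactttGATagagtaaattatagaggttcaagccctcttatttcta

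mt-Te was the highest tRNA gene in all 9 mice. Its FPKM was 4064, 4055 and 3478 in the NC-chow mice, 643, 4743 and 5539 in the IVF-chow mice and 5797, 4587 and 3493 in the FET-chow mice. IVF-chow mouse 2 was far below the other mice, which were between 3478 and 5797. The 8 light-strand tRNA genes together held 70.6% to 81.6% of the tRNA FPKM in 8 mice and 51.0% in IVF-chow mouse 2. Fragments of the long light-strand RNA and of the heavy-strand RNA that runs across the same bases are counted at these genes if the counting did not use strand, so that a tRNA level here need not be that of the mature tRNA.

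The adjacent light-strand tRNA genes mt-Ta, mt-Tn, mt-Tc and mt-Ty (alanine, asparagine, cysteine and tyrosine) were higher in each FET-chow mouse than in each IVF-chow mouse. mt-Tn had 4351, 4169 and 1480 FPKM in FET-chow mice 2, 3 and 4, and 222, 1126 and 1246 in IVF-chow mice 2, 3 and 4. NC-chow mice 1, 5 and 6 had 1893, 1240 and 692. FET-chow mice 2 and 3 stood well above all others, while FET-chow mouse 4 was close to IVF-chow mouse 4 and within the NC-chow range. The log2 fold change of mt-Tn was 2.14 ± 0.96 (SE) in FET-chow against IVF-chow, with an unadjusted p of 0.0314 and an adjusted p-value of 1 by limma, and it was 1.34 without IVF-chow mouse 2. Divided by the mitochondrial total, mt-Tn was 1.55%, 1.29% and 0.347% in the FET-chow mice and 0.0896%, 0.292% and 0.548% in the IVF-chow mice, and these overlapped. mt-Tg and mt-Tp (glycine and proline) were likewise higher in FPKM in each FET-chow than in each IVF-chow mouse, so that 6 of 37 genes did not overlap in this direction, beside 1.27% of all genes tested, and 0 did in the other, beside 2.56%. As a part of the mitochondrial total, mt-Tl1 alone was higher without overlap (beside 0.577% of all genes) and 0 were lower (beside 4.09%). mt-Tl1 overlapped when shares were taken per fragment.

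At the lower end were mt-Tf, mt-Tv and mt-Ts1 (phenylalanine, valine and a serine tRNA), with at most 28.2, 32.6 and 9.15 FPKM. For mt-Tf and mt-Ts1 this was the level of a few fragments, at most 5.4 and 4.6 of them by the estimated depth. mt-Tf was at 0 in FET-chow mouse 2 and mt-Ts1 in IVF-chow mouse 4. mt-Ts2, the other serine tRNA and the shortest of the genes, was at 0.435 in IVF-chow mouse 2 and 1.97 in FET-chow mouse 3, against 62.7 to 264 in the other 7 mice. In both mice its neighbours mt-Th and mt-Tl2 (histidine and leucine) were not low, with 173 and 244 FPKM in IVF-chow mouse 2 and 169 and 136 in FET-chow mouse 3. The FPKM of mt-Tq ran from 32.4 to 220, of mt-Td from 52.5 to 164, of mt-Tk from 22.4 to 74.8 and of mt-Tt from 13.6 to 93.3. For each of these genes, all groups overlapped.

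**Figure D4:**
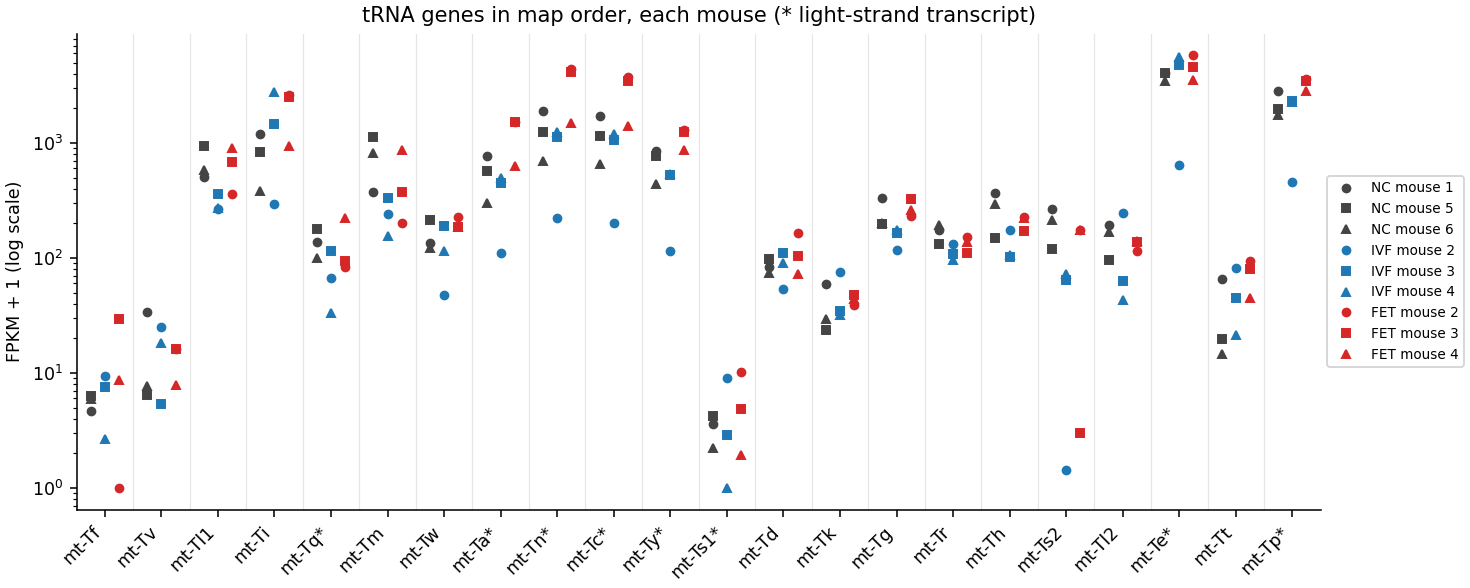
FPKM + 1 on a log scale of the 22 tRNA genes in the order of the map, one point per mouse, with light-strand genes marked by a star. mt-Te is the highest in every mouse, and mt-Ts2 is at 0.435 and 1.97 FPKM in 2 mice.

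The comparisons between groups asked whether transfer of frozen or fresh embryos was followed by other levels of these genes in the adult liver. All 37 genes passed the filter at a mean FPKM of 1 and were tested with all other genes by limma on log2(FPKM + 1), with Benjamini-Hochberg adjustment over the 6755 genes tested. In FET-chow against NC-chow, the share of the entries of ribosomal RNA type was higher and the estimated depth lower, both without overlap. Their part in the results was not tested. In this comparison limma called 0 of the 37 at an adjusted p-value under 0.05, beside 0.237% of all genes tested. At an unadjusted p under 0.05 there were 4 members, mt-Atp6, mt-Nd4l and mt-Atp8 with lower and mt-Rnr2 with higher values, beside 12.0% of all genes. Without NC-chow mouse 5, and without NC-chow mouse 6, there were 0 such members, beside 5.71% and 5.09% of all genes. Under median-ratio scaling, and under scaling to nuclear protein-coding genes, 7 other members had an unadjusted p under 0.05, mt-Ti, mt-Ta, mt-Tn, mt-Tc, mt-Ty, mt-Nd3 and mt-Tp, all with higher values, beside 16.9% and 16.3% of all genes tested under these scalings, and 28 of the 37 members were above 0. The first 4 kept their direction there and lost the unadjusted call, with log2 fold changes under median-ratio scaling of 2.14 for mt-Rnr2, -1.54 for mt-Atp6, -1.23 for mt-Nd4l and -0.86 for mt-Atp8. In FPKM as deposited, the median log2 fold change of the members was 0.02, and that of all genes tested was -0.46. mt-Ty and mt-Tp were higher in each FET-chow than in each NC-chow mouse, 2 of 37, beside 1.98% of all genes, but the margins were small. The lowest FET-chow and highest NC-chow values were 861 and 853 FPKM for mt-Ty and 2849.4 and 2848.7 for mt-Tp, and both genes overlapped as a part of the mitochondrial total. Of the 37, 0 were lower without overlap, beside 17.1%. As a part of the mitochondrial total, mt-Tw (tryptophan) was higher in each FET-chow mouse (beside 2.43% of all genes), by 0.0431% in FET-chow mouse 4 against 0.0428% in NC-chow mouse 5 and with overlap when shares were taken per fragment, and mt-Atp6 and mt-Cytb were lower (beside 9.84%).

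In IVF-chow against NC-chow, limma called 0 of 37, beside 0.0592% of all genes. At an unadjusted p under 0.05 there were 7 members, mt-Ts2, mt-Atp6, mt-Nd4l, mt-Co1, mt-Atp8, mt-Nd5 and mt-Cytb, all lower, beside 4.07% of all genes. Under median-ratio scaling, and under scaling to nuclear protein-coding genes, mt-Atp6 was the only one, beside 5.62% and 5.32% of all genes. mt-Co1 and mt-Atp8 lost the unadjusted call there and kept their direction, with log2 fold changes of -1.04 and -1.27 under median-ratio scaling, from -1.50 and -1.72. The median of the members was -0.79 and that of all genes -0.25. In each IVF-chow mouse 8 members, mt-Tl1, mt-Tm, mt-Atp8, mt-Tg, mt-Tr, mt-Nd4l, mt-Ts2 and mt-Nd5, were lower than in each NC-chow mouse, beside 5.46% of all genes, and 0 were higher, beside 0.770%. As a part of the mitochondrial total, 5 of these 8 (mt-Tl1, mt-Tm, mt-Atp8, mt-Nd4l and mt-Nd5) stayed without overlap, beside 1.81% of all genes, and 0 were higher, beside 2.35%. When shares were taken per fragment, mt-Tl1 overlapped and mt-Tm, mt-Atp8, mt-Nd4l and mt-Nd5 did not. IVF-chow mouse 2, with 61.9% of its FPKM on the 3 entries of ribosomal RNA type, was the lowest mouse for 6 of the 8, and without it the median of the members was -0.35 and that of all genes 0.21.

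In FET-chow against IVF-chow, limma called 0 of 37, beside 0.0888% of all genes, and mt-Tn and mt-Tc had an unadjusted p under 0.05, beside 4.01%. The median of the members was 0.72, with 34 of 37 above 0, and that of all genes was -0.20. Without IVF-chow mouse 2 the median of the members was 0.38 and that of all genes -0.65. The 3 comparisons share mice, so they are not independent of each other. In simulated data of the FET-chow against NC-chow comparison, changes of 3 on the log2 scale were recovered in 54.7% of genes and changes of 6 in 98.4%, and all members had values of less than 3 in that comparison. The simulated noise was independent for each gene and mouse, without differences in composition or depth between libraries. These rates therefore need not hold for the 37 genes. The other comparisons were not simulated. The value furthest from 0 among the members was that of mt-Ts2 in IVF-chow against NC-chow (-3.33 ± 1.3, adjusted p = 0.823 by limma), which was -1.47 without IVF-chow mouse 2.

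**Figure D5:**
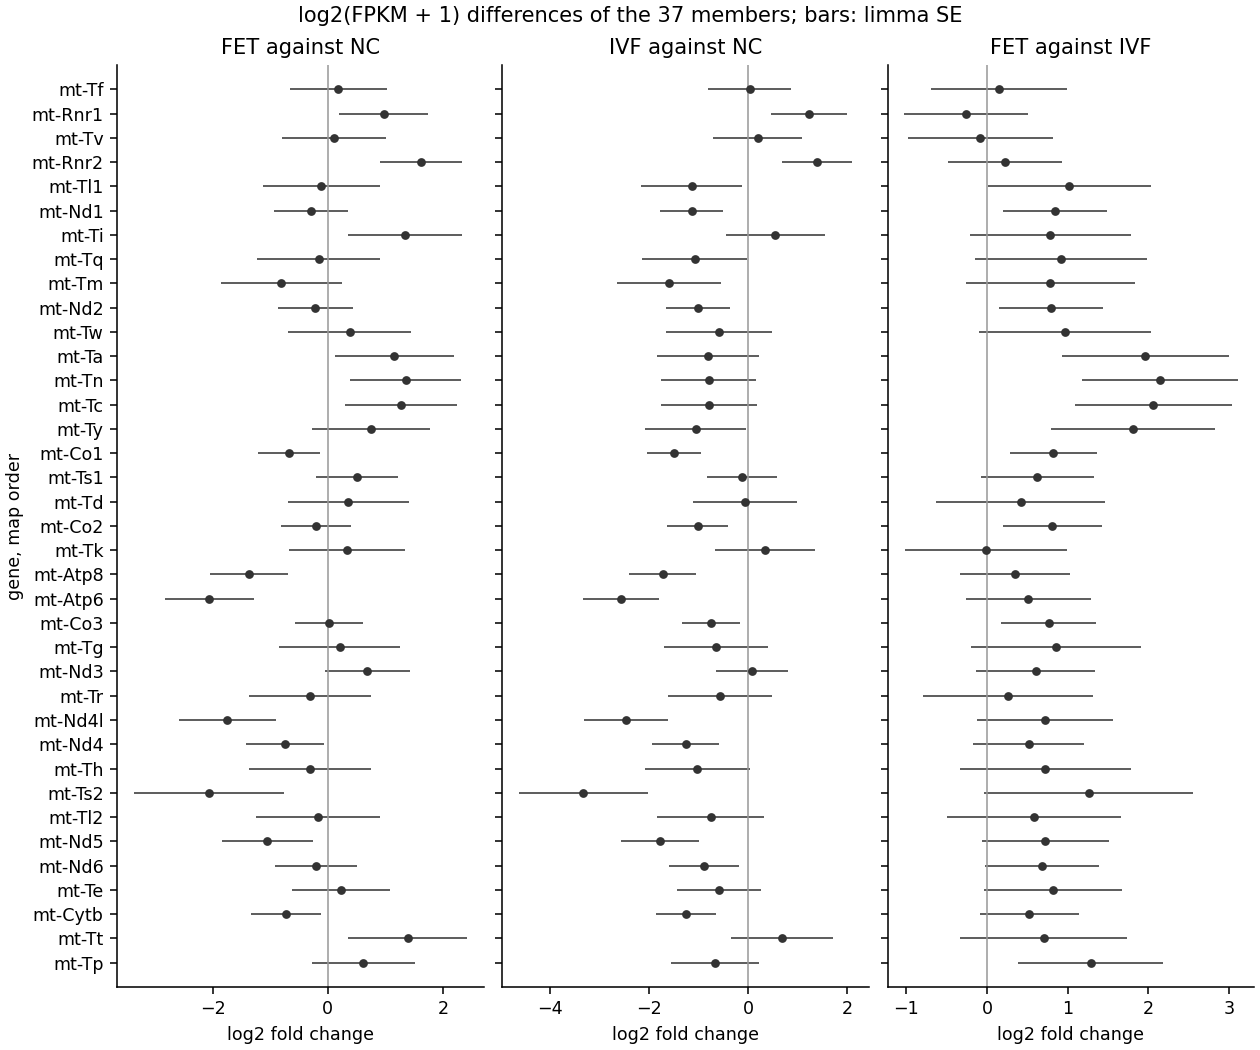
log2 fold change on the log2(FPKM + 1) scale of each of the 37 genes in the order of the map, with the SE from limma as bars, in the 3 comparisons. No gene passed the adjusted threshold, and 34 of 37 lie above 0 in FET against IVF.

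The nuclear genes that serve mitochondrial RNA and the respiratory chain were described beside the members, as 8 lists with 118 genes tested. None of the 118 was called by limma in any of the 3 comparisons. In FET-chow against NC-chow, 99 of 118 had negative values, with 6 lower and 1 higher at an unadjusted p under 0.05, while 18 of the 37 mitochondrial genes had negative values. Over all genes tested, 74.4% had negative values, and 685 were lower and 127 higher at an unadjusted p under 0.05, or 12.0% of all genes, a larger share than that of the 118. The subunits of complex I had a median log2 fold change of -0.53 (36 tested), those of complex III -0.62 (9), of complex IV -0.98 (12) and of complex V -0.75 (16), beside -0.46 over all genes. The values furthest from 0 were -2.28 ± 1.04 (SE) for Ndufa8, -2.27 ± 0.85 for Ndufc1 and -2.18 ± 0.99 for Ndufb3 of complex I, with adjusted p-values of 0.369, 0.269 and 0.37 by limma. They were -1.66 for Uqcrc2, -1.45 for Uqcrb and -0.93 for Uqcr11 of complex III, -1.85 for Cox7b, -1.33 for Cox6a1 and -1.22 for Cox8a of complex IV, and -1.41 for Atp5c1, -1.38 for Atp5g1 and -1.19 for Atp5g3 of complex V. Among the genes that copy and keep mitochondrial DNA, they were -1.04 for the topoisomerase Top1mt, -0.70 for the thymidine kinase Tk2 and -0.63 for the single-strand binding protein Ssbp1. The regulators of mitochondrial biogenesis Esrra, Yy1 and Myc were at -0.79, -0.71 and -0.45. None of these genes passed the adjusted threshold. Among the genes of mitochondrial transcription and RNA processing, with a median of -0.45 (20 tested), the values furthest from 0 were -1.89 ± 0.62 for Mterf3 (a factor in mitochondrial ribosome assembly), -1.70 ± 1.0 for Hsd17b10 (a subunit of mitochondrial RNase P) and -1.40 ± 0.59 for Tefm (the transcription elongation factor), with adjusted p-values of 0.186, 0.505 and 0.334 by limma. Mterf3 had 3.2, 3.07 and 4.26 FPKM in the NC-chow mice and 0, 0.746 and 0 in the FET-chow mice. These are low values, and the estimated depth was lower in all FET-chow than in all NC-chow mice. Its log2 fold change in IVF-chow against NC-chow was -0.51 ± 0.62.

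Lars2, which charges the mitochondrial leucine tRNAs, had the widest range of these genes. Of the other genes that charge mitochondrial tRNAs, Kars (lysine) was at -1.02 and Gatc, a subunit of the enzyme that completes the glutamine tRNA, at 0.58 on the log2 scale in FET-chow against NC-chow. The FPKM of Lars2 was 1406, 0.0899 and 0.156 in NC-chow mice 1, 5 and 6, 3165, 1414 and 0.114 in IVF-chow mice 2, 3 and 4. FET-chow mice 2, 3 and 4 had 2565, 2033 and 2442. Mice of the same group fell on both sides of a wide gap, except in FET-chow. Those near 0 were also the 3 with the lowest shares of the entries of ribosomal RNA type, at 3.49%, 5.03% and 18.1% of the summed FPKM. The next share, 19.3%, was close to the last of these, and it was that of IVF-chow mouse 3 with 1414 FPKM of Lars2. The part of these entries in the Lars2 values was not tested. The log2 fold change in FET-chow against NC-chow was 7.59 ± 1.82 (SE) with an adjusted p-value of 0.0505 by limma. The tRNAs it charges, mt-Tl1 and mt-Tl2, ran from 268 to 946 and from 41.9 to 244 FPKM, with log2 fold changes of -0.11 ± 1.02 and -0.17 ± 1.08.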

How the data were processed

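Liver total RNA had been isolated with TRIzol and sequenced on an Illumina Nova6000 system. The authors deposited FPKM values per Ensembl gene, and their methods state trimming of the reads and mapping to the whole genome. The submitters' processing notes name FastQC 0.11.5, STAR 2.5.3a, StringTie 1.3.1c and DESeq2 1.16.1 without their roles. The genome build, the annotation, the strandedness, the RNA selection and the treatment of fragments that map to several places are not given in the sources used here, and the last of these bears on every gene with a copy in the nuclear genome. Of the 55335 genes, 55154 matched GENCODE vM21 (GRCm38), which gave symbols, positions, lengths and all sequences printed.

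A filter kept genes whose FPKM averaged 1 or more across the 9 mice. Limma 3.58.1 (R 4.3.3) was run on log2(FPKM + 1), 1 model with 3 groups, a variance trend, two-sided tests and Benjamini-Hochberg adjustment (threshold 0.05). Shares are percent of the FPKM of the 37 or the 13 genes. Nuclear copies were found with blastn (BLAST+ 2.17.0) against the mitochondrial sequence rebuilt from its transcripts, with at least 90% identity over at least 80% of the transcript. The limma fit was tested on simulated data with 200 of 6755 genes changed, in 20 draws, with independent noise for each gene and mouse. False calls made up 5.2% and 5.09% of calls at the 2 sizes in these data. Depth was estimated as the fragment number at which low FPKM of genes with 1 exon become whole within 2%, up to 8 fragments. At best 29.2% to 43.1% of low values did, so whole reads were not recovered and no count test was run.

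The groups come from the labels. The members and lists were chosen with earlier results of these data known, and the lists were written by hand with older and newer symbols of some genes (174 of 194 matched). The text names all 37 mitochondrial genes, of each mitochondrial list the called genes or those with the largest changes in FET-chow against NC-chow, the 5 leading nuclear copies and 3 of the 5 tested entries of ribosomal RNA type. Nuclear copies beyond these 5 were named after their values were seen. As alternatives, the analysis was repeated with no filter, a pseudocount of 0.1, a filter at a mean of 10, median-ratio and quantile scaling, scaling to nuclear protein-coding genes or to the mitochondrial total, a fit of only the groups compared, NC-chow mouse 1 alone, a replicate block, other denominators of the shares and leaving out each mouse. Adding or substituting the chromosome 1 copies was chosen after seeing the data.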

Additional observations from a re-analysis of the deposited data

How the results depend on the processing

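Limma called 0 of the members in each comparison under the 16 alternatives run for it. For the comparisons with NC-chow, 1 of these used NC-chow mouse 1 alone, where the lone mouse is assumed to vary like the other groups, and its 0 calls say nothing about stability. The lowest adjusted p-value reached was 0.0622 for FET-chow against NC-chow (without NC-chow mouse 1), 0.0555 for IVF-chow against NC-chow (without IVF-chow mouse 3) and 0.249 between FET-chow and IVF-chow. At an unadjusted p under 0.05 there were 0 to 8, 1 to 14 and 0 to 7 members, while the share of all genes ran from 1.5% to 16.9%, 1.3% to 7.22% and 1.71% to 12.5%. The members' median log2 fold change in FET-chow against NC-chow had no stable sign. It was -0.11 with a pseudocount of 0.1, -0.11 with a filter at a mean of 10, -0.05 against NC-chow mouse 1 alone, 0.53 with median-ratio scaling, 0.25 with quantile normalization, 0.66 with scaling to nuclear protein-coding genes and 0.38 with scaling to the mitochondrial total, and ran from -0.08 to 0.06 when 1 mouse was left out. Median-ratio scaling moved the median of all genes from -0.46 to -0.11. In IVF-chow against NC-chow the members' median stayed below 0, at -1.16 to -0.35 with 1 mouse left out and -0.81 to -0.15 under the other settings, and in FET-chow against IVF-chow it stayed above 0, at 0.38 to 1.10 and 0.28 to 1.01.

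The mitochondrial part of the library was lower than in NC-chow by 14.4 percentage points in FET-chow and 16.4 in IVF-chow, which came to -3.05 and -2.47 with the entries of ribosomal RNA type left out. With 1 mouse left out these differences ran from -18.8 to -11.3 and from -20.9 to -13.4, and that of FET-chow from IVF-chow from -1.26 to 6.49. The mt-rRNA share differed by 3.44 to 13.6 percentage points in FET-chow from NC-chow, 0.0706 to 33.2 in IVF-chow from NC-chow and -25.9 to 7.22 between FET-chow and IVF-chow, so that IVF-chow mouse 2 alone set its sign in the last. The mean share of mt-Nd6 was 2.99% per length and 1.6% per fragment. Leaving out 1 mouse, it ran from 2.8% to 3.24%, that of mt-Rnr2 from 7.41% to 12.1%, of mt-Rnr1 from 3.71% to 8.07%, of mt-Co1 from 15.8% to 18.1% and of mt-Cytb from 7.23% to 8.14%. The log2 fold change of mt-Rnr2 in FET-chow against NC-chow was -0.55 against NC-chow mouse 1 alone.

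The labels give the numbers 2, 3 and 4 to mice of both IVF-chow and FET-chow. The residuals of same-numbered mice correlated by -0.131, 0.022 and -0.255, and those of IVF-chow mouse 2 and FET-chow mouse 4 by 0.292. With 3 mice in each group, these values cannot decide whether the numbers pair the mice. The main fit assumed no pairing. With the replicate block, limma called 0 members, their median was 0.72, and 0 of all genes were called (109 at an unadjusted p under 0.05). Depth limits tRNA genes such as mt-Tf and mt-Ts1, which had at most 5.4 and 4.6 fragments by the estimated depth.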
